A study of Mus musculus with 9 samples.

Results

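Transcripts of 38 chromatin regulators were described in haematopoietic stem cells (HSCs) of the mouse: enzymes and complex subunits that write, erase, read or move histone and DNA modifications. The members were the rows of the deposited count table that carry one of 38 gene symbols. Each symbol matched 1 row of the 23317 in the table, and all 38 passed the filter on low counts, among 14227 genes tested. They were grouped by role into DNA methylation (5 genes), Polycomb repressive complexes PRC2 (4) and PRC1 (6), heterochromatin (3), Trithorax and other activating methyltransferases (6), histone demethylases (4), deacetylases (3), acetyltransferases (4) and nucleosome remodellers (3). A further 170 genes of the same classes and complexes, called partner genes here, were listed for comparison, and 168 of them could be tested.

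The 9 libraries were low-input RNA sequencing of 1500 sorted cells each from the bone marrow of wild-type mice. Young HSC (3 libraries) were taken to be from mice of 2 to 4 months, and old HSC (3 libraries) from mice of 20 to 24 months, by the wording of the group labels. The remaining 3 libraries, here called treated old HSC, were old HSC with ABC294640, an inhibitor of sphingosine kinase 2. The sources used here give neither the sort markers nor the sex of the mice, nor how the inhibitor was dosed, by which route and for how long. Whether libraries of the same group stem from different animals is unstated, and p-values therefore reflect only the spread between libraries, which may be technical. In such bulk samples, fewer cells of a type and less RNA per cell cannot be told apart.

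Polycomb complexes silence genes: PRC2, with the methyltransferase Ezh2 or Ezh1, methylates histone H3, and PRC1, with the ubiquitin ligases Ring1 or Rnf2, modifies histone H2A. Trithorax-type methyltransferases of the Kmt2 family mark active promoters and enhancers and counter Polycomb. Acetyltransferases open chromatin and deacetylases close it, while Dnmt enzymes add and Tet enzymes oxidise methyl groups on DNA. In HSCs many of these genes are known for roles in self-renewal or lineage choice, and 2 of the partner genes, Tet2 and Dnmt3a, are known from clonal blood disorders.

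Levels are in CPM, read counts scaled to a common library size with edgeR's TMM factors. A gene was called where the adjusted p of edgeR's quasi-likelihood test (Benjamini-Hochberg, over every gene in the fit) was under 0.05. Between old and young HSC, 5 of 38 members rose (Hdac2, Hdac1, Kat7, Kdm6b and Cbx5) and 6 fell (Kat6a, Tet3, Kdm2b, Dot1l, Ezh2 and Arid1a). The called share was 28.9% of the members, against 39.4% of all genes tested (19.6% higher and 19.8% lower). The largest called rise was 1.31-fold (Hdac2) and the largest called fall 1.33-fold (Kat6a). At an unadjusted p under 0.05 there were 18 members, against 47.8% of all genes. Libraries of the 2 groups did not overlap for 16 members, 8 higher and 8 lower in old HSC, against 48.4% of all genes (22.8% higher and 25.6% lower). The median absolute log2 fold change was 0.13 over the members and 0.23 over all genes tested. When a change had to exceed 1.2-fold (edgeR's glmTreat), 0 members and 15.8% of all genes were called. In that test 3 members had an unadjusted p under 0.05, and DESeq2, with no fold threshold, called 9 members. The count of rises and falls moved with the scaling and the filter: RLE size factors gave 7 up and 5 down, and a filter at 5 CPM in 3 libraries gave 4 up and 10 down. Over all genes, RLE size factors gave 2994 up and 2652 down of 14227. The 5 CPM filter gave 2124 up and 1980 down of 9670, and DESeq2 2815 up and 1842 down of 22496. The size of the gap between members and all genes thus depended on the setting.

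Between treated and untreated old HSC, 1 of 38 members was called, the deacetylase Hdac2, which fell to 64.8 to 73.4 CPM, within the range of the young libraries. That share was 2.63%, against 1.19% of all genes tested (0.766% higher and 0.429% lower). Hdac2 was also the only member with an unadjusted p under 0.05, which 8.83% of all genes had. With the 1.2-fold threshold glmTreat called 0 members (1 at an unadjusted p under 0.05) and 0.105% of all genes, and DESeq2, without it, called 1. Of the 22496 genes in its fit, DESeq2 called 137 higher and 72 lower.

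Young replicate 1 stood apart: a chi-square comparison of counts gave 8.36 and 7.67 per degree of freedom against the other young libraries, and 2.23 to 5.38 between all other replicates of a group. Old replicate 2 also differed, at 5.38 and 4.81 against old replicates 1 and 3, which gave 2.61 between them. The measure grows with depth, and young replicate 1 had the most counts (23254115). Leaving out young replicate 1 gave 15 called members between old and young HSC, beside 2924 genes up and 2636 down of all 14353 tested. Cbx5 and Dot1l were lost, and Dnmt1, Hdac3, Kdm4a, Kmt2c, Kmt2d and Tet1 were added. Hdac2 remained the one member called between treated and untreated old HSC.

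**Figure D1:**
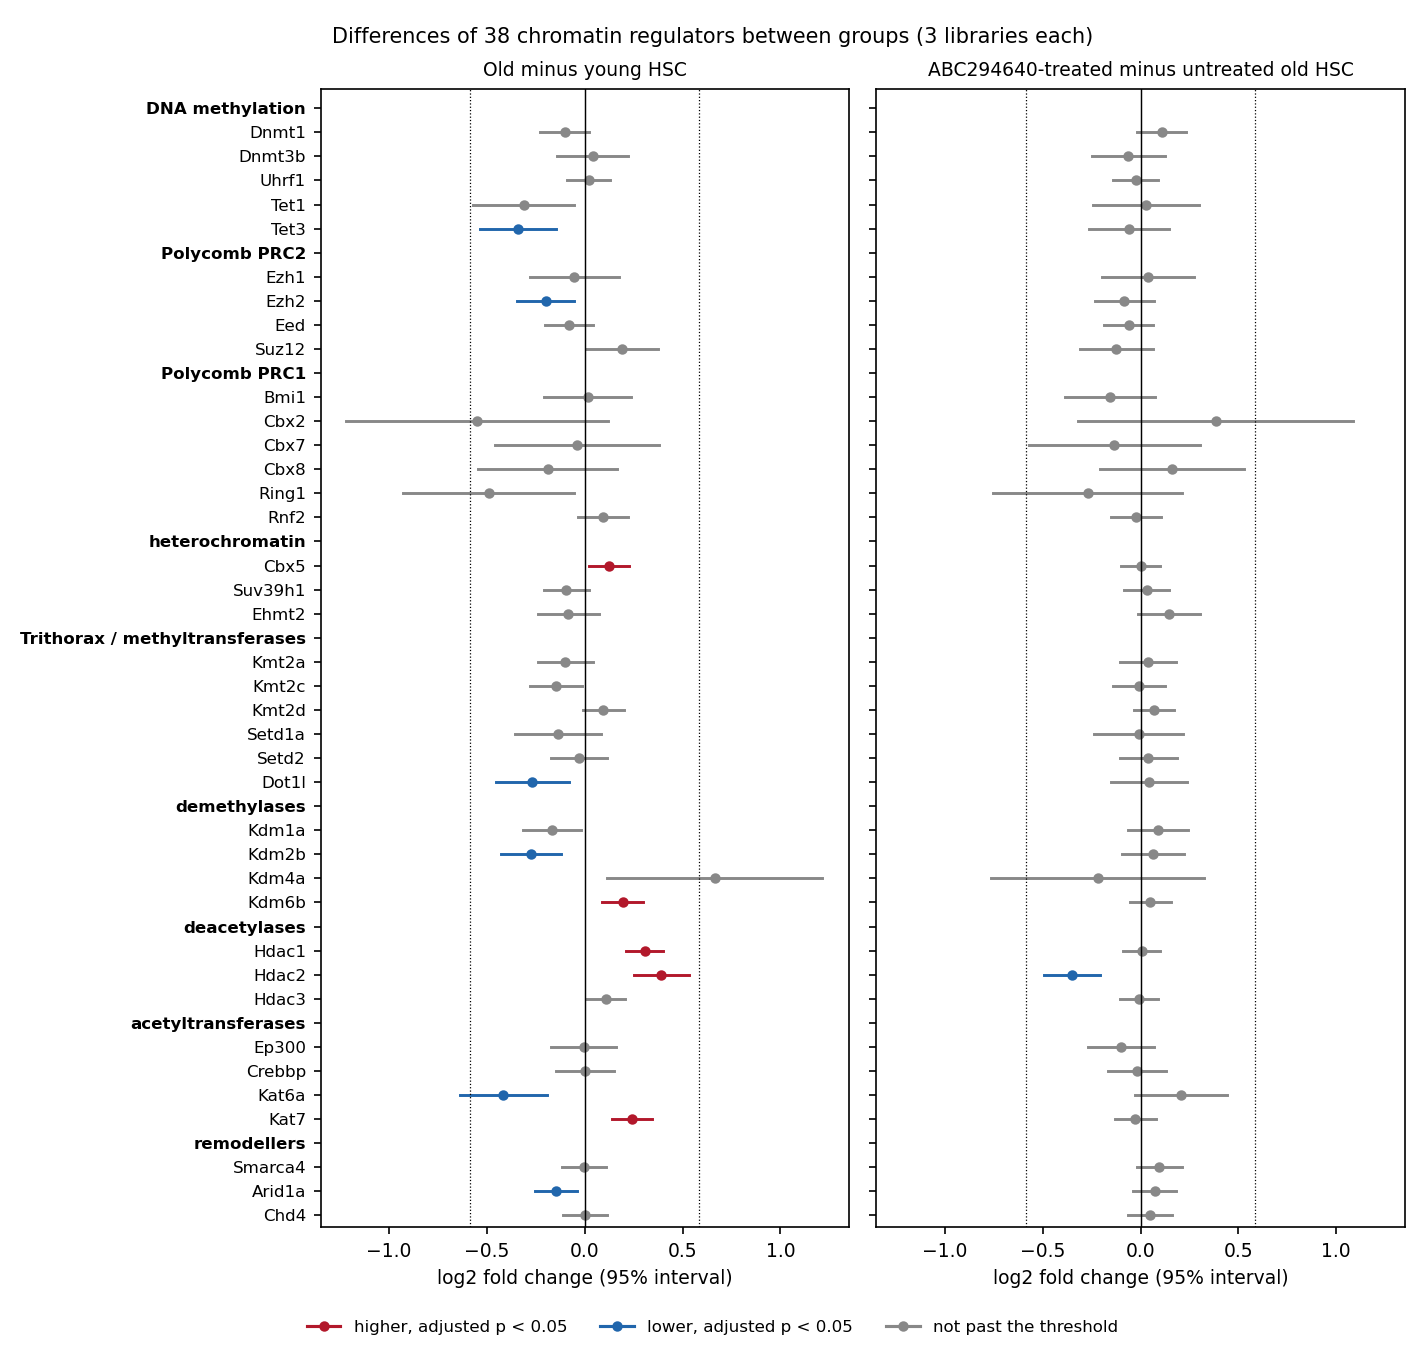
Each row is a member, ordered by class, with its log2 fold change (dot) and 95% interval (line) for old minus young HSC (left) and treated minus untreated old HSC (right), 3 libraries in each group. Red and blue mark higher and lower genes at an adjusted p under 0.05, and dotted lines mark 1.5-fold. On the left 5 members are red and 6 are blue, and on the right Hdac2 alone is blue.

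The spread between libraries allows a bound to be set on the changes, which need not hold between animals. Between old and young HSC, 34 of 38 members had a 95% interval that lay within 1.5-fold in both directions, against 58.8% of all genes tested. These were 24 of the 27 members not called and 10 of the 11 called. The 3 uncalled members whose interval was wider were low or variable: Cbx2, Kdm4a and Ring1. For treated against untreated old HSC, 35 of 38 members had an interval within 1.5-fold, against 70.7% of all genes tested. The median SE between old and young HSC was 0.070 over the members and 0.105 over all genes tested.

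Members were compared with one another as CPM per kilobase of exon. The most abundant was Hdac1 (52.2 CPM per kb, mean of 9 libraries), followed by Hdac3 (28.4), the demethylase Kdm6b (20.3), the PRC2 subunit Eed (18.8) and Hdac2 (16.8). The least abundant were the Polycomb readers Cbx7 (0.45 CPM per kb) and Cbx2 (0.24), with Kdm4a (0.32) between them. In that order 33 of 37 neighbouring pairs had libraries that overlapped, so the order is firm only over longer distances. The median member lay at 4.32 CPM per kb, and the median gene tested at 2.66.

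**Figure D2:**
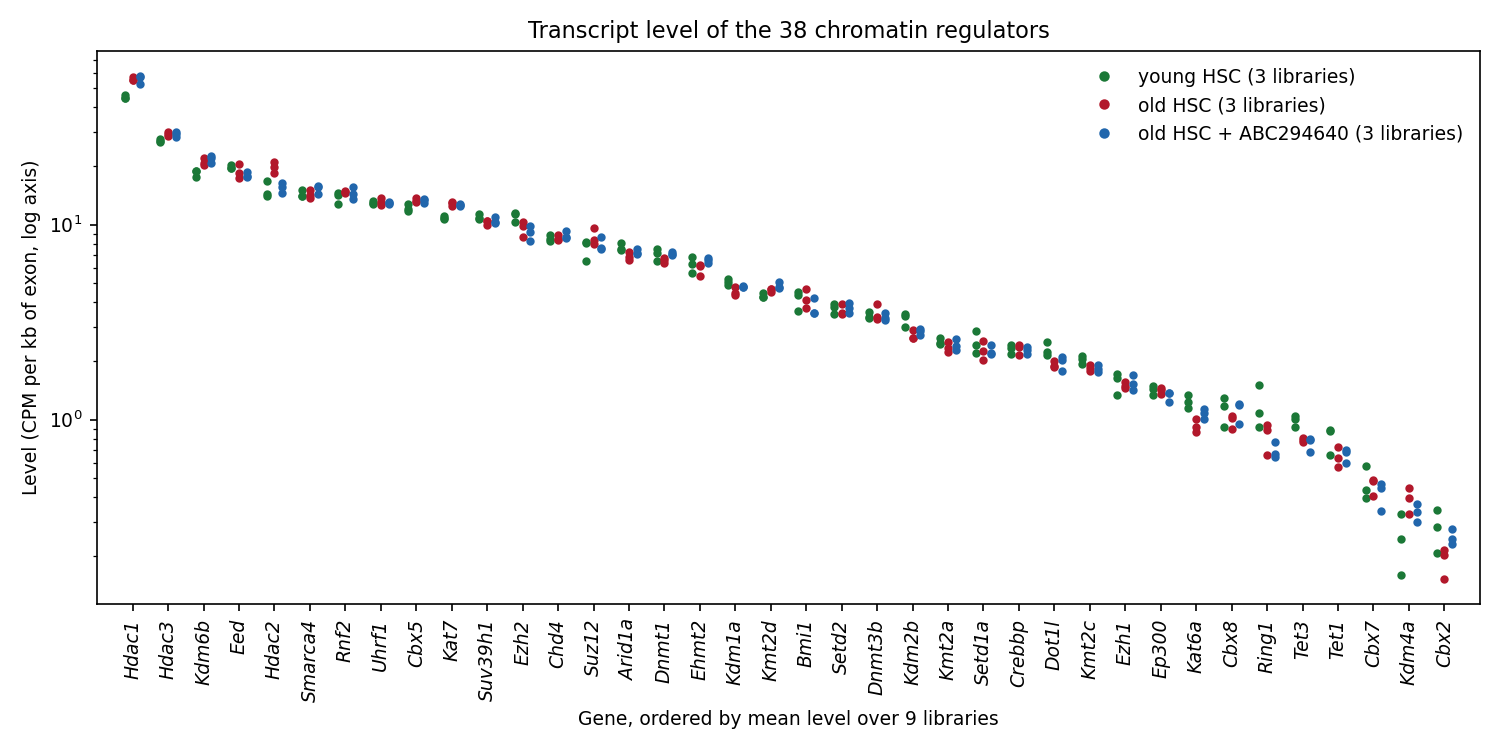
The vertical log axis gives CPM per kb of exon and the horizontal axis the 38 members from highest to lowest mean; each dot is 1 library, coloured by group. Hdac1 stands alone at the top (mean 52.2), and Cbx7, Kdm4a and Cbx2 lie below 0.6 in every library.

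The class I deacetylases, catalytic subunits that remove acetyl groups from histones, had 2 of 3 members called between old and young HSC, both higher. Hdac2 lies on chromosome 10, 36974544 to 37001889, plus strand (GRCm38). It was at 64.4, 75.2 and 62.6 CPM in the young libraries, at 88.8, 93.3 and 82.8 in the old, and at 69.5, 64.8 and 73.4 in the treated old. All 3 old libraries were above all young and all treated ones, while young and treated libraries overlapped. The log2 fold change between old and young was 0.39 ± 0.068 (SE; edgeR adjusted p = 0.000115).

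Hdac1, the paralogue found with Hdac2 in the SIN3, NuRD and CoREST complexes, lies on chromosome 4, 129516104 to 129542713, minus strand. It was at 154, 153 and 158 CPM in young, 196, 189 and 190 in old, and 182, 199 and 196 in treated old HSC. Both old groups were above every young library, and they overlapped each other. The difference between old and young on the log2 scale was 0.31 ± 0.046 (SE; edgeR adjusted p = 2.7e-05). Of the gene's 31-base words, 40.0% also occur in transcripts of other genes, mostly the pseudogene Gm10093, so its count depends on how shared reads were assigned.

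Hdac3, the catalytic subunit of the NCoR and SMRT corepressor complexes, was at 108 to 112 CPM in young and 116 to 121 in old HSC. These ranges did not overlap, but the log2 fold change of 0.11 ± 0.046 (SE) missed the threshold (edgeR adjusted p = 0.0666). It was called under 6 of 17 alternatives, DESeq2 and RLE size factors among them. Summed over the 3 genes, the class was at 332 ± 3.4 CPM (SD, n = 3) in young, 398 ± 4.3 in old and 379 ± 9.1 in treated old HSC. With 3 libraries against 3, a two-sided exact permutation test cannot go below p = 0.1, which it gave for both differences.

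Of 19 partner deacetylase genes and corepressor subunits tested, edgeR called 0 higher and 3 lower between old and young HSC. Among all genes tested 19.6% were called higher and 19.8% lower. The log2 fold change was above 0 in 7 of the 19, up to 0.20, and below 0 in 12. An unadjusted p under 0.05 was reached by 4, and DESeq2 also called 0 higher. The 3 called were Hdac7 (log2 fold change -0.51), Hdac9 (-0.84) and Hdac10 (-0.40). Hdac7 and Hdac9 are class IIa enzymes, which act largely as scaffolds for class I deacetylases. Hdac7 was at 16.3, 12.8 and 14.0 CPM in young and 10.2, 10.5 and 9.55 in old HSC.

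**Figure D3:**
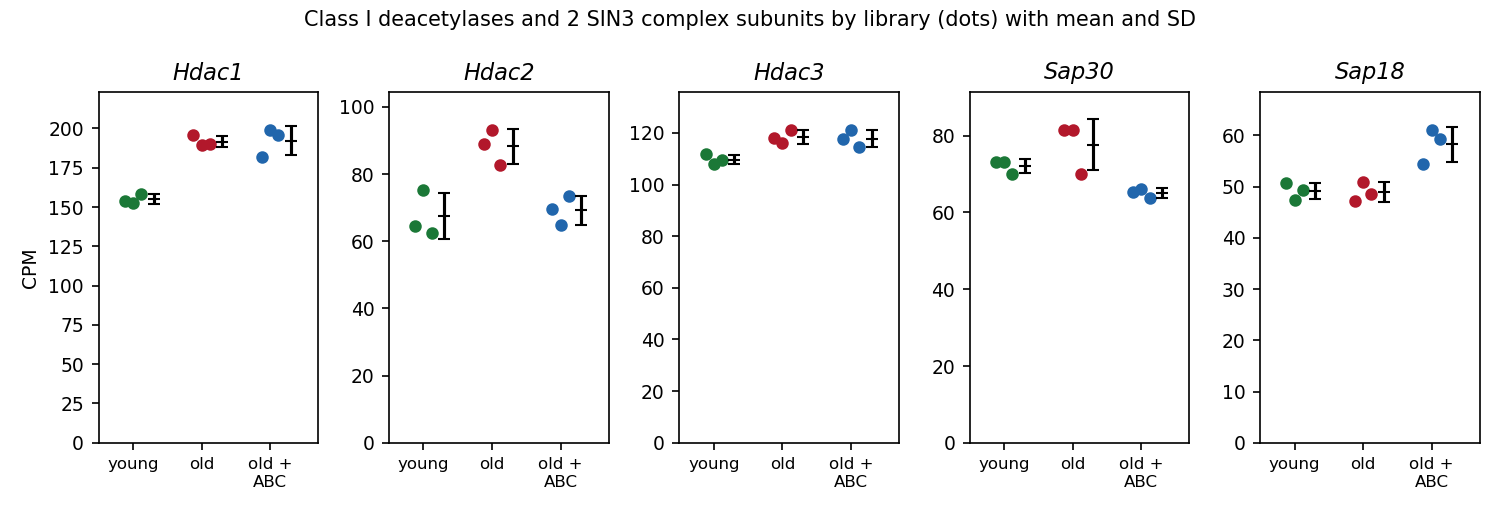
CPM of Hdac1, Hdac2, Hdac3 and the SIN3 complex subunits Sap30 and Sap18 in each library (dots) with the group mean and SD (black), each panel from 0. Hdac1 is higher in both old groups, the 3 untreated old libraries of Hdac2 lie above the other 6, and Sap30 and Sap18 separate treated from untreated old HSC in opposite directions.

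Among PRC2 genes, the catalytic subunit Ezh2 fell and its partners were not called. Ezh2 lies on chromosome 6, 47530139 to 47595341, minus strand. It was at 68.6, 75.7 and 77.0 CPM in young, 68.9, 65.8 and 57.8 in old, and 65.6, 55.1 and 61.0 in treated old HSC. Old and young ranges met at 1 library of each, young replicate 1 and old replicate 1. The log2 fold change was -0.20 ± 0.070 (SE; edgeR adjusted p = 0.0298), and the call was lost with DESeq2 and without old replicate 2 or 3 or young replicate 2 or 3.

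Ezh1, the paralogue typical of resting cells, was at 9.91 to 12.7 CPM in young and 10.8 to 11.6 in old HSC (log2 fold change -0.05 ± 0.109, SE). Eed, which binds the methyl mark and stimulates the enzyme, was at 74.9 to 77.7 CPM in young and 66.4 to 78.2 in old HSC. Suz12, the scaffold subunit, was at 32.1, 39.8 and 40.4 CPM in young and 41.2, 47.3 and 39.2 in old HSC (log2 fold change 0.19, edgeR adjusted p = 0.0921). Both overlapped between the groups.

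Of 9 PRC2 partner genes tested, 2 rose and 1 fell (33.3%, against 39.4% of all genes tested). Mtf2, an accessory subunit that guides PRC2 to DNA, rose (log2 fold change 0.18), as did the X-linked histone chaperone Rbbp7 (0.21). Its paralogue Rbbp4 fell (-0.14).

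None of the 6 PRC1 members was called between old and young HSC by edgeR, 1 had an unadjusted p under 0.05, and DESeq2 called 0. Rnf2, the main ubiquitin ligase of the complex, was at 52.7 to 59.7 CPM in young and 60.2 to 61.4 in old HSC (log2 fold change 0.09 ± 0.062, SE). Bmi1, the PRC1 subunit best known for HSC self-renewal, was at 14.4 to 17.9 CPM in young and 14.9 to 18.5 in old HSC. Its count is uncertain, since 28.1% of its words are shared with other genes.

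Ring1, the second ubiquitin ligase, was at 4.89, 2.99 and 3.50 CPM in young, 2.88, 3.06 and 2.14 in old and 2.50, 2.09 and 2.16 in treated old HSC. Young replicate 1 was the highest of these. The log2 fold change between old and young was -0.49 ± 0.209 (SE; edgeR adjusted p = 0.0683). The chromobox readers Cbx2, Cbx7 and Cbx8, each under 5 CPM in every library, overlapped between old and young HSC.

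Of 21 PRC1 partner genes, 4 were called higher and 3 lower (33.3%, against 39.4% of all genes tested). Yaf2 (log2 fold change 0.54) and Pcgf5 (0.49), which belong to variant PRC1 complexes, were among those that rose. Phc2, a subunit of canonical PRC1, fell (-0.47).

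In heterochromatin, Cbx5, the reader HP1 alpha, rose and the methyltransferases were not called. Cbx5 (chromosome 15, 103191544 to 103239816, minus strand) was at 106, 109 and 115 CPM in young, 117, 120 and 123 in old, and 116, 123 and 121 in treated old HSC. All young libraries were below all others. On the log2 scale the difference was 0.12 ± 0.048 (SE; edgeR adjusted p = 0.0452), and the call was lost under 9 of 17 alternatives, among them leaving out young replicate 1 or 2, old replicate 1 or 3, or treated replicate 3.

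Suv39h1, which writes the mark that HP1 reads, was at 56.5 to 59.8 CPM in young and 52.4 to 55.1 in old HSC (log2 fold change -0.09, edgeR adjusted p = 0.188). It is the only X-linked member. Ehmt2, the G9a methyltransferase, was at 31.2 to 37.5 CPM in young and 30.0 to 34.0 in old HSC. Of 10 partner genes, 2 rose and 2 fell (40%, against 39.4% of all genes tested). Suv39h2, the paralogue of Suv39h1, rose (log2 fold change 0.60), as did the X-linked remodeller Atrx (0.36). Ehmt1, the partner of Ehmt2, fell (-0.30), as did the reader Cbx3 (-0.13).

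Of the 6 Trithorax and activating methyltransferase members, only Dot1l was called. Dot1l, a histone H3 methyltransferase linked to transcribed genes, lies on chromosome 10, 80755206 to 80795461, plus strand. It was at 21.9, 19.4 and 18.6 CPM in young, 16.1, 16.3 and 17.5 in old, and 17.7, 18.2 and 15.5 in treated old HSC. All young libraries were above all old ones, treated or not. The log2 fold change was -0.27 ± 0.089 (SE; edgeR adjusted p = 0.0219), and the call was lost with DESeq2, with no filter on low counts, and without young replicate 1 or old replicate 1 or 2.

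The large Kmt2 genes were not called. Kmt2a, the founding mammalian Trithorax gene, had a log2 fold change of -0.10 ± 0.067 (SE) and Kmt2c, an enhancer methyltransferase, of -0.15 ± 0.063 (edgeR adjusted p = 0.071), with all old libraries below all young ones. Kmt2d, the paralogue of Kmt2c, was at 84.6 to 89.3 CPM in young and 89.9 to 93.7 in old HSC (log2 fold change 0.10 ± 0.049), again without overlap. Kmt2c and Kmt2d were both called when young replicate 1 was left out. Setd2, which methylates histones along transcribed genes, had a log2 fold change of -0.03 and Setd1a of -0.14. Setd1a shares 51.8% of its words with other transcripts, mostly those of the overlapping model Gm49388.

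Among 23 partner genes of this class, 2 rose and 5 fell (30.4%, against 39.4% of all genes tested). Mllt3, a cofactor of Dot1l in the DotCom complex, fell from 16.5, 18.1 and 18.6 CPM to 14.6, 11.2 and 10.9 (log2 fold change -0.53). A second Dot1l cofactor, Mllt10, also fell (-0.18); it lies outside the naming rule and was picked after its value was seen. Of the Kmt2 core subunits, Ash2l was higher (0.27) and Rbbp5 lower (-0.27), while Wdr5 and Dpy30 were not called. The methyltransferase Nsd3 fell (-0.20).

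Of the 4 demethylase members, Kdm6b rose and Kdm2b fell. Kdm6b, which removes the mark that PRC2 writes, lies on chromosome 11, 69398508 to 69413675, minus strand. It was at 130.3, 121 and 130.4 CPM in young, 141, 152 and 144 in old, and 153, 156 and 143 in treated old HSC. The young libraries lay below all others (log2 fold change 0.19 ± 0.051, SE; edgeR adjusted p = 0.00476). The ratio of Kdm6b to Ezh2, eraser to writer, was taken in CPM per kb of exon. It was 1.66 ± 0.15 (SD, n = 3) in young, 2.19 ± 0.21 in old and 2.41 ± 0.28 in treated old HSC. This pair was chosen after the values were seen, and the two-sided exact permutation test between old and young gave its floor of p = 0.1.

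Kdm2b, a demethylase that also brings variant PRC1 to CpG islands, lies on chromosome 5, 122870665 to 122989823, minus strand. It was at 32.3, 37.7 and 37.1 CPM in young, 28.4, 31.4 and 28.6 in old, and 30.9, 29.6 and 31.8 in treated old HSC. All young libraries were above all others (log2 fold change -0.27 ± 0.073, SE; edgeR adjusted p = 0.00596).

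Kdm1a, the flavin-dependent demethylase LSD1, was at 25.3 to 27.2 CPM in young and 22.4 to 24.8 in old HSC, without overlap (log2 fold change -0.17, edgeR adjusted p = 0.069). Kdm4a had the largest estimated rise of all members (0.66 ± 0.264, SE; edgeR adjusted p = 0.0517), at 1.91, 1.42 and 0.92 CPM in young and 2.59, 2.30 and 1.90 in old HSC. The highest young and the lowest old library crossed. It rested on 321 reads over the 9 libraries and was called under 5 of the 16 alternatives in which it could be tested.

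Among the partner demethylases, 4 rose and 4 fell of 19 (42.1%, against 39.4% of all genes tested), and several of these are sex-linked. The Y-linked Kdm5d was at 0.04, 0.15 and 0 CPM in young and 3.65, 5.60 and 4.10 in old HSC. The Y-linked Uty rose from 5.25 to 6.17 CPM in young to 12.6 to 14.6 in old HSC. Their X-linked relatives fell: Kdm6a from 22.2 to 23.4 CPM to 15.1 to 15.6 (log2 fold change -0.56), and Kdm5c from 25.5 to 27.7 CPM to 19.9 to 23.4 (-0.26). Age and the sex of the donors, as far as these genes report it, cannot be told apart here. Among the 14 autosomal partner demethylases, 2 rose and 1 fell (21.4%, against 39.4% of all genes tested). Jmjd6 (0.24) and Kdm5a (0.20) were higher and Kdm3b (-0.21) was lower. Without genes of the sex chromosomes in the fit, 11 members were called between old and young HSC, with Tet1 in place of Cbx5.

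The acetyltransferase members split within the MYST family. Kat6a (MOZ), required for HSC maintenance, lies on chromosome 8, 22859535 to 22943259, plus strand. It was at 11.3, 10.5 and 12.2 CPM in young, 7.94, 8.42 and 9.24 in old, and 9.92, 10.4 and 9.25 in treated old HSC. Untreated old libraries were below all others, and treated old libraries lay between the other 2 groups. The gap between the old groups was slight: old replicate 3 was at 9.243 and treated replicate 3 at 9.247 CPM. The log2 fold change between old and young was -0.42 ± 0.107 (SE; edgeR adjusted p = 0.00446).

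Kat7 (HBO1), which acetylates histone H3 at promoters and replication origins, rose. It lies on chromosome 11, 95274259 to 95310246, minus strand, and was at 59.2, 59.9 and 61.4 CPM in young, 71.8, 72.4 and 69.2 in old, and 69.3, 70.7 and 69.6 in treated old HSC. All young libraries were below all others, by a log2 fold change of 0.24 ± 0.050 (SE; edgeR adjusted p = 0.000685). The general coactivators Ep300 and Crebbp had log2 fold changes of -0.01 ± 0.079 and 0.00 ± 0.070 (SE). Of 18 partner genes, 2 rose and 2 fell (22.2%, against 39.4% of all genes tested). Hat1, which acetylates new histone H4, rose (0.22), as did the reader Brd3 (0.15). Kat6b, the paralogue of Kat6a, fell (-0.38), as did Kat2b (-0.32).

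Of the 3 remodeller members, Arid1a fell and both ATPases were level. Arid1a, the DNA-binding subunit of the canonical BAF complex, lies on chromosome 4, 133679008 to 133756769, minus strand. It was at 86.3, 84.7 and 92.0 CPM in young, 76.0, 78.8 and 82.9 in old, and 81.2, 82.3 and 86.1 in treated old HSC. Young and untreated old libraries did not overlap (log2 fold change -0.15 ± 0.053, SE; edgeR adjusted p = 0.0317), and the call was lost under 10 of 17 alternatives, among them DESeq2, RLE size factors and leaving out young replicate 3, old replicate 1 or 2, or treated replicate 1 or 2. Smarca4, the BAF ATPase, was at 90.3 to 97.6 CPM in young and 88.3 to 97.4 in old HSC. Chd4, the NuRD ATPase, was at 66.4 to 71.3 and 66.8 to 71.1 CPM.

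Of 38 partner remodeller genes, 8 rose and 5 fell (34.2%, against 39.4% of all genes tested). Baz1a, the ACF1 subunit of ISWI complexes, rose from 106, 118 and 108 CPM to 171, 172 and 169 (log2 fold change 0.62), and Chd7 from 23.6, 25.1 and 25.1 CPM to 38.7, 35.1 and 36.2 (0.57). The BAF subunit Actl6a (0.28) and Chd1 (0.28) also rose.

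Among the DNA methylation members, Tet3 fell and the maintenance genes Dnmt1 and Uhrf1 were not called. Tet3, a dioxygenase that oxidises methylcytosine, lies on chromosome 6, 83362373 to 83459084, minus strand. It was at 16.9, 15.4 and 17.5 CPM in young, 13.1, 13.4 and 12.8 in old, and 13.3, 13.2 and 11.4 in treated old HSC. All young libraries were above all others (log2 fold change -0.34 ± 0.093, SE; edgeR adjusted p = 0.00645).

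Its paralogue Tet1 was at 10.2, 13.5 and 13.7 CPM in young and 9.88, 11.2 and 8.81 in old HSC. It missed the threshold (log2 fold change -0.31 ± 0.124, SE; edgeR adjusted p = 0.0506). The maintenance methyltransferase Dnmt1 was at 48.2 to 55.2 CPM in young and 46.9 to 49.8 in old HSC. Its log2 fold change was -0.10 ± 0.060 (SE, edgeR adjusted p = 0.19), and Dnmt1 was called when young replicate 1 was left out. Its recruiter Uhrf1, of whose words 24.3% are shared with other genes, was at 54.6 to 56.0 and 53.9 to 58.3 CPM. Dnmt3b, a de novo enzyme with a close copy (Dnmt3c), had a log2 fold change of 0.04 ± 0.087.

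Partner genes of this class were called in 8 of 11 cases (72.7%, against 39.4% of all genes), 6 up and 2 down. Those with the smallest p were Gadd45a, Gadd45b and Gadd45g, stress-induced genes linked to active DNA demethylation, and the glycosylase Tdg, which excises oxidised methylcytosine. Gadd45a rose from 29.9 to 31.6 CPM in young to 53.5 to 59.0 in old HSC (log2 fold change 0.87). Of its words 16.98% are shared with an antisense model. The log2 fold changes of Gadd45b, Gadd45g and Tdg were 0.54, 0.49 and 0.46. Tdg shares 47.97% of its words with other genes, mostly its copy Tdg-ps, so its count depends on how shared reads were assigned. The de novo methyltransferase Dnmt3a fell from 20.7, 23.5 and 23.8 CPM to 17.6, 17.3 and 15.5 (-0.43); it was picked after its value was seen.

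**Figure D4:**
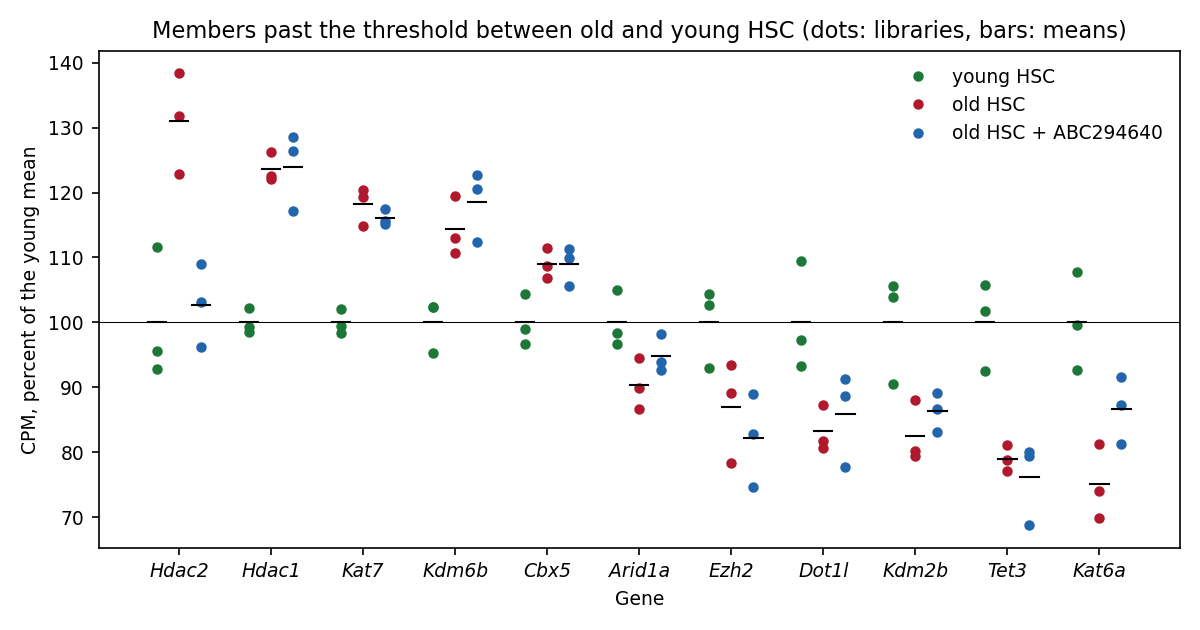
CPM of the 11 members called between old and young HSC, as percent of the young mean, with 1 dot for each library and a bar for each group mean. Hdac2 is the member in which the treated libraries return to the young range from above, while Hdac1, Kat7, Kdm6b and Cbx5 stay above all young libraries.

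**Figure D5:**
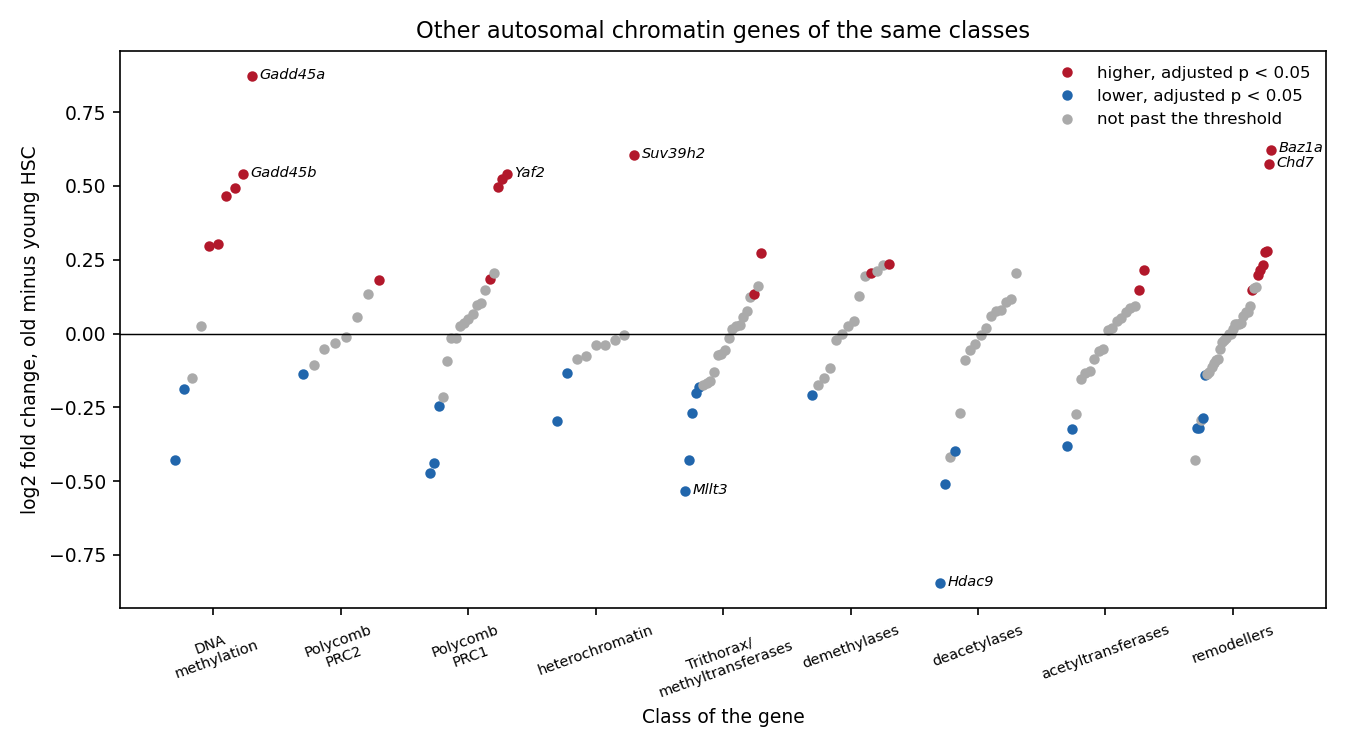
Each dot is an autosomal partner gene (153 in all), placed by class and by its log2 fold change between old and young HSC, with red and blue for higher and lower genes at an adjusted p under 0.05. Gadd45a is the highest and Hdac9 the lowest, and 26 genes are red and 23 blue.

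Over all partner genes, 30 rose and 27 fell of 168 (33.9%), with a median log2 fold change of -0.0029, against -0.05 over the members and -0.03 over all genes tested. Neither share stood above the 39.4% of all genes. By class the partner share ran from 15.8% (deacetylases) to 42.1% (demethylases), apart from DNA methylation (72.7%). The demethylase share includes the sex-linked genes, and it was 21.4% over the 14 autosomal ones.

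Treated and untreated old HSC differed at few chromatin genes. Hdac2 fell by 0.35 on the log2 scale (SE 0.068; edgeR adjusted p = 0.00949), and all 3 treated libraries were below all untreated old ones. Against young HSC, treated cells were at a log2 difference of 0.04 ± 0.069 (SE), with a 95% interval from -0.10 to 0.18. The call rested on few libraries: the adjusted p was 0.0549 and 0.0758 without old replicate 1 or 2 and 0.0711 and 0.105 without treated replicate 1 or 2. The log2 change stayed between -0.40 and -0.31 over 17 alternatives. The comparisons with young and with treated cells share the old libraries, so the rise and the fall of Hdac2 are not independent.

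Hdac1 did not fall with it (log2 change 0.00 ± 0.046, SE). The Hdac2 to Hdac1 ratio in CPM per kb of exon was 0.35 ± 0.023 (SD, n = 3) in old HSC. It was 0.28 ± 0.024 in treated old and 0.34 ± 0.039 in young HSC. The ratio was picked after the values were seen, and the exact permutation test between treated and untreated cells was at its floor of p = 0.1. Old and young ratios overlapped (exact permutation p = 0.4). Treated ratios (0.250 to 0.295) lay below all young ones (0.304 to 0.379), with the exact permutation test again at p = 0.1. Relative to Hdac1, Hdac2 thus did not separate old from young HSC and was lower in treated than in young HSC.

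Of the 37 members not called, 5 had treated libraries entirely above the untreated old ones: Dnmt1, Cbx2, Ehmt2, Kmt2d and Kat6a. With Hdac2, 6 of 38 members did not overlap, against 15.5% of all genes tested (8.34% higher and 7.13% lower). Kat6a had the largest log2 change of these after the weakly expressed Cbx2 (0.21 ± 0.112, SE; edgeR adjusted p = 0.637). Its libraries were barely apart, at 9.243 CPM in old replicate 3 and 9.247 in treated replicate 3.

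Of 168 partner genes, 2 were called (1.19%, the same share as of all genes). Both encode subunits of the SIN3 deacetylase complex, in which Hdac1 and Hdac2 also occur, but they changed in opposite directions, and no enrichment was tested. Sap30 fell from 81.6, 81.4 and 70.0 CPM to 65.3, 66.2 and 63.8 (log2 change -0.26 ± 0.059, SE; edgeR adjusted p = 0.035). Sap18 rose from 47.2, 51.0 and 48.5 CPM to 54.5, 61.1 and 59.2 (0.25 ± 0.060; adjusted p = 0.043). Both were without overlap between the 2 groups, but the count fell to 0 when old replicate 1 or 2 or any treated library was left out. Sap18 shares 17.8% of its words with other genes, mostly its copy Sap18b.

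The promoters of Hdac2, Sap30 and Sap18 are shown because these were the called chromatin genes between treated and untreated old HSC. Each is 300 bases of the sense strand, 250 before to 50 after the RefSeq start (GRCm38.p6), with matches to the GC box GGGCGG, on either strand, in capitals. The positions are chr10:36974294-36974593, plus strand, for Hdac2, chr8:57487811-57488110, minus strand, for Sap30, and chr14:57797939-57798238, plus strand, for Sap18.
Hdac2: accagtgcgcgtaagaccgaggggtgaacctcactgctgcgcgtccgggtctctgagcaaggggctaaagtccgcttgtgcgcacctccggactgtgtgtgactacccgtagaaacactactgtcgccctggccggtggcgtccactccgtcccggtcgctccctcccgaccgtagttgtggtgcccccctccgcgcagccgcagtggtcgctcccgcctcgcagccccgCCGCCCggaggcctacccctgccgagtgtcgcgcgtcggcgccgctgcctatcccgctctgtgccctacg
Sap30: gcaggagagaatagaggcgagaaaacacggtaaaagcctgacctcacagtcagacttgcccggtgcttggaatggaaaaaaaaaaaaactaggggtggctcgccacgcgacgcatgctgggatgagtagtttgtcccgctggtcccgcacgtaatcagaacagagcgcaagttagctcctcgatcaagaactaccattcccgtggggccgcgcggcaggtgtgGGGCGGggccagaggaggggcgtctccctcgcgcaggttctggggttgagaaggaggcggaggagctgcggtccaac
Sap18: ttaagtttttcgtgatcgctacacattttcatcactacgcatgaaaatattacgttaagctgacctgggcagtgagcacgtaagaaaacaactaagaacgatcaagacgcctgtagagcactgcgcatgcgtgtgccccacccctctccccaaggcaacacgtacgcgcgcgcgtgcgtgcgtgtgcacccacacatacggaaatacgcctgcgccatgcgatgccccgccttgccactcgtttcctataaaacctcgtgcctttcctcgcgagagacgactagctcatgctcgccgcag
Hdac2 and Sap30 each hold 1 GC box and these letters are not in the Sap18 window. The 3 windows have 36, 22 and 29 CpG dinucleotides and a GC content of 69.7%, 59.3% and 54.3%, against medians of 19 CpG and 59.7% over windows of tested genes. RefSeq promoters were matched for 33 of 38 members. The GC box occurred in 26 of these (78.8%) and in 64.5% of 10971 tested genes, and CCAAT, searched on both strands, in 15 of 33 (45.5%) and 43.3%. The ETS site CCGGAAG, on either strand, was in 2 of 33 (6.06%) and 18.6%. Median GC content was 68.3% over the members' windows and 59.7% over those of tested genes. These 3 motifs are from 8 searched, and none of the differences was tested.

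Treated old HSC were also set against young HSC, to see which members still differed. There 9 of 38 members were called, 5 higher (Cbx5, Hdac1, Kat7, Kdm6b and Kmt2d) and 4 lower (Ezh2, Kdm2b, Tet3 and Ring1), against 37.6% of all genes tested (19.1% higher and 18.5% lower). Ring1 had the largest log2 difference, -0.76 ± 0.216 (SE; edgeR adjusted p = 0.00886), and its call was lost without young replicate 1. The calls of Cbx5 and Kdm2b were each lost under 8 of 17 alternatives. With the 1.2-fold threshold 1 member, Ring1, was called, against 15.4% of all genes. Ezh2 was lower by -0.28 ± 0.071, with no overlap, and Tet3 by -0.40 ± 0.093. Of the 11 members called between old and young, Hdac2, Kat6a, Dot1l and Arid1a were not called here. Only for Hdac2 among these 4 was the difference between treated and untreated old HSC itself past the threshold.

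Other measures of the libraries moved with age. The counts of called genes below stand beside 19.6% of all genes tested called higher and 19.8% lower. Library totals ran from 16663445 to 23254115 counts. Of 20 mitosis genes, 15 rose and 1 fell between old and young HSC, and their sum went from 2354 to 2398 CPM in young to 2795 to 2810 in old HSC. Of 25 S phase genes, 6 rose and 4 fell. Among the HSC and progenitor markers, Kit was at 119 and Cd48 at 296 CPM in young HSC, while the stem cell markers Procr (3.89) and Slamf1 (7.71) were low. The name HSC is that of the sample labels, and whether the cells bear it out was not tested. Of 12 such markers, 7 fell and 2 rose with age. The 14 granulocyte and monocyte genes, led by Mpo and Elane, summed to 35579 to 39924 CPM in young and 52512 to 55894 in old HSC, with 9 higher and 2 lower. The 9 erythroid genes summed to 1751 to 1791 and 995 to 999 CPM, with 1 higher and 8 lower. The 10 B and plasma cell genes summed to 338 to 382 and 676 to 761 CPM, led by Igkc, with 3 higher and 1 lower of 8 tested. The 10 stromal and endothelial genes summed to 50.7 to 59.6 and 40.0 to 45.7 CPM, with 4 lower of 8 tested. The 8 megakaryocyte genes summed to 455 to 488 and 240 to 263 CPM, with 3 lower of 7 tested. The 9 T and NK cell genes summed to 1338 to 1492 and 1742 to 1901 CPM, nearly all from Nkg7. Of these, 2 were higher and 1 lower of 7 tested, and the median log2 fold change was -0.53, opposite in sign to the sum. No gene of these marker lists was at 0 in all libraries, and Cd3e, Cdh5 and Pax5 were among the lowest.

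Some of these sums also differed between treated and untreated old HSC, beside the changes of Hdac2, Sap30 and Sap18. In treated cells the erythroid genes summed to 1096 to 1105 CPM, the megakaryocyte genes to 301 to 317, the HSC and progenitor markers to 811 to 821 (778 to 786 in untreated old HSC), the T and NK cell genes to 1907 to 2076 and the mitosis genes to 2849 to 2867, all above the untreated old libraries. The B and plasma cell genes, at 639 to 665 CPM, were below them, and the granulocyte and monocyte genes, at 52369 to 53666, overlapped them. By edgeR 1 of 9 erythroid and 1 of 7 megakaryocyte genes tested rose, and 1 of 8 B and plasma cell genes fell. Among all genes tested, 0.766% were called higher and 0.429% lower in treated than in untreated old HSC. With 3 libraries against 3, the exact permutation p of each sum that did not overlap was at its floor of 0.1. The part of any of these differences in the members' changes, with age or with treatment, was not tested.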

How the data were processed

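The table deposited by the authors holds estimated counts of reads for each gene and library (expected counts; 56.0% of non-zero values are whole), which were rounded. The submitters' processing notes name STAR 2.6.1d and HTSeq 0.10.0, besides edgeR 3.24.3, Trim Galore 0.6.2 and build mm10, without order. The sources used here do not say how fractional values arose or whether strand was used. All 23317 rows matched GENCODE M21 (GRCm38), the source of coordinates and exon lengths. R 4.3.3 with edgeR 4.0.16 (TMM, default filter by group, quasi-likelihood test) fitted all 9 libraries together, with group as the only term, and p-values were Benjamini-Hochberg adjusted over 14227 genes. The biological coefficient of variation was 0.0583. Amplified reads without molecular identifiers are not independent molecules. Shared words are 31-base words of a gene's transcripts that also occur in another gene's. Called genes whose share is not given above include Kdm3b (25.74%), Rbbp4 (22.05%), Rbbp7 (16.46%), Kat2b (14.55%) and Kdm2b (13.37%).

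All members were named, with full statistics for those called. Of each partner class, up to 4 called genes of smallest p with age and up to 2 with treatment were named, plus Kdm5c, Kdm5d, Kdm6a and Uty; others are marked or follow from small counts, and 1 result the rule named is not reported here. Members and lists were chosen with earlier results of these data known. Alternatives were RLE size factors, DESeq2 1.42.0, no filter, at least 5 CPM in 3 libraries, 2 groups alone, a 1.2-fold threshold (glmTreat), a replicate block, each library left out and, chosen after seeing the data, no sex chromosome genes. Summed levels were compared by exact permutation in Python 3.11.15 (scipy 1.17.1).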

Additional observations from a re-analysis of the deposited data

How the results depend on the processing

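No called member changed sign under any alternative that could be computed for it (17 for most members and 15 or 16 for some of those with low counts, for example Cbx2, and for Suv39h1). With a threshold of 1.2-fold the count of called members became 0 for old against young, 0 for treated against old and 1 for treated against young HSC, and the partner counts became 16, 0 and 12 (from 57, 2 and 43). For treated against old HSC the partner count became 4 with the 2 groups alone and 4 with no filter. Leaving out 1 library at a time gave 8 to 15, 0 to 1 and 7 to 9 members, and 43 to 54, 0 to 4 and 35 to 46 partner genes, in the same order of comparisons. For members between old and young HSC, no filter gave 8 up and 4 down and DESeq2 6 up and 3 down. Over the 22496 genes of either fit, no filter gave 3409 up and 2806 down and DESeq2 2815 up and 1842 down. DESeq2 did not call Arid1a, Dot1l or Ezh2 and added Hdac3, and of the partner genes named it did not call Hdac9, Hdac10, Kat2b, Kdm3b, Kdm5c, Mllt10, Rbbp4 or Rbbp5. The cause of these shifts was not tested, beyond the fewer libraries of the fits that leave one out.

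With the replicate number as a block, 12 members were called between old and young HSC (Kdm4a was added), 1 between treated and old, and 9 between treated and young, and 56, 2 and 44 partner genes. The numbers did not pair the libraries: deviations of same-numbered libraries from their group means correlated at -0.0808 to 0.132, so the block is only an alternative.

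The lowest members (Cbx2 at 179 and Kdm4a at 321 reads over 9 libraries) had the widest intervals. Groups of 3 were too small for a test of outlying libraries.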
